A study of Mus musculus with 4 samples.

Results

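The 9 histone variant genes described here are Hist1h1t, Hils1, H1fnt, Hist1h2ba, Hist1h2aa, H2afx, H2afz, H3f3a and H3f3b. They were taken by symbol from a deposited table of 18419 genes, and all 9 were found. The table holds 27060 cells from the testes of outbred ICR mice. They were captured in droplets with the 10x Genomics 3′ v2 kit, which tags every transcript it reads with a unique molecular identifier (UMI). A0 was the control that received water, A10 received alginate oligosaccharides (AOS) at 10 mg/kg, B0 received busulfan, an alkylating drug that kills dividing germ cells, and BA10 received busulfan followed by AOS at 10 mg/kg. Busulfan was given as a single dose at weaning age, and the dispersed cells came from the tubules. Each group was 1 library of cells from several pooled mice, so the animals within a group cannot be told apart and no difference between groups has a replicate error. All intervals given here are 95% intervals that cover counting error only, and for a count of 0 their exact upper limit is given.

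Nucleosomes wrap DNA around a core of H2A, H2B, H3 and H4, and a linker histone H1 closes the entry site. Developing male germ cells replace the replication-coupled forms of these proteins by variants from separate genes. Testis forms of H2A and H2B come in early, H2A.X is phosphorylated at meiotic breaks and over the silenced sex chromosomes, H3.3 is laid down outside replication, and spermatid linker histones accompany the compaction that ends with transition proteins and protamines. Many histone transcripts end in a stem-loop and carry no poly(A) tail, whereas this chemistry primes on poly(A), so a level below counts captured transcripts. How much of each member's transcripts the capture missed was not tested.

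Per the GENCODE M21 annotation of GRCm38, the members lie on 6 chromosomes. Hist1h1t (chr13:23695814-23696725, + strand), Hist1h2ba (chr13:23933773-23934156, − strand) and Hist1h2aa (chr13:23934462-23934851, + strand) belong to the large histone cluster. Hils1 (chr11:94967593-94968456, + strand), H1fnt (chr15:98255986-98257293, − strand) and H2afx (chr9:44334694-44336077, + strand) stand apart from it, and each of these 6 genes has 1 exon. H2afz (chr3:137864487-137866922, + strand), H3f3a (chr1:180800832-180813943, − strand) and H3f3b (chr11:116021912-116027962, − strand) are spliced, with up to 5, 5 and 6 exons. H3f3a reads are uncertain, since H3f3c, H3f3a-ps1 and H3f3a-ps2 are annotated processed pseudogenes and H3f3aos is an antisense gene that overlaps its 5′ end. Pseudogenes of H3f3b and the other members were not searched for, so their reads may be uncertain too.

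The libraries held 8941, 9682, 4659 and 3778 cells (A0, A10, B0 and BA10) with a median of 12685, 10948, 4214 and 17989 UMIs per cell. The shallowest BA10 cell had 9013 UMIs, a depth that 448 of the B0 cells reached, so comparisons with B0 are also given over cells at or above 9013 UMIs (the common limit). The limit changed the make-up of B0 as well as its depth: 74.3% of the 448 cells came from cluster 15, an unnamed cluster with 11.2% of all B0 cells, and 1.79% were Leydig cells. Pairs of libraries shared between 31 and 135 cell barcodes, and leaving these barcodes out changed no count of members past 2-fold in the 4 library comparisons below. Clusters were formed without any histone gene and named by markers: spermatogonia (SPG), early and late spermatocytes (SPC), early and late spermatids (ST), Leydig, Sertoli, macrophage and endothelial cells. Germ cell and somatic markers of the testis were found in each library, but in different amounts: late ST markers summed to 49653, 55562, 565 and 1778 UMIs per 1000000 (CPM) in A0, A10, B0 and BA10, and Leydig markers to 160, 166, 16225 and 711 CPM, with 0 markers of either list at 0. Leydig cells were 62.6% of B0 and late SPC were 64.0% of BA10. Early ST numbered 2112, 2222, 6 and 402 cells in A0, A10, B0 and BA10, and late ST 2064, 2275, 0 and 16. A sum over a library by itself cannot tell fewer cells of a type from less RNA per cell. Levels within classes are therefore given as well, and the part of the cell numbers in the library levels was not tested.

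Hils1 and H1fnt, the linker histones of haploid spermatids, differed most between libraries among the 6 members above 10 CPM, on the log2 scale. In CPM, Hils1 stood at 1402 in the control, 1259 with AOS alone, 121 with busulfan alone and 202 with both. H1fnt stood at 778, 658, 13.9 and 30.3 CPM in the same order of libraries. Both were high in the libraries without busulfan and low in both busulfan libraries. Relative to A0, after adding 1 CPM to each level as in all ratios below, the log2 ratio of B0 was −3.52 for Hils1 and −5.70 for H1fnt, and that of BA10 was −2.79 and −4.64. Of the 6 members above 10 CPM in a library, H1fnt in B0 had the widest counting interval for its level, from 12.5 to 15.5 CPM.

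**Figure D1:**
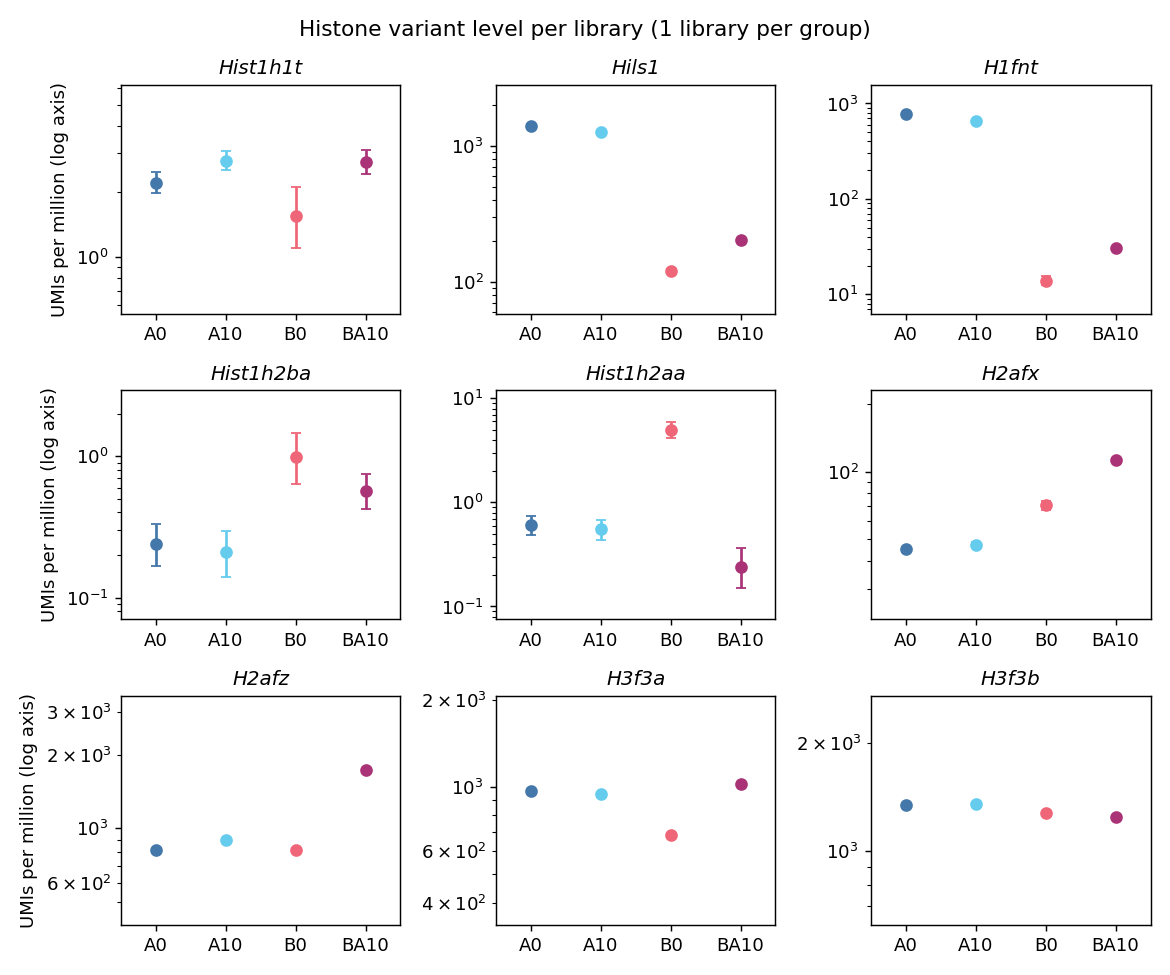
Level of each histone variant (CPM, log axis that differs between panels) in the 4 libraries, 1 library per group. Points are sums over all cells and bars are exact 95% Poisson intervals of counting error, hidden where smaller than the point. Hils1 and H1fnt sit lowest in B0 and BA10, Hist1h2aa peaks in B0 at 5.02 CPM, and H2afx and H2afz are highest in BA10.

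Both genes were higher in each later germ cell class of A0. Hils1 was at 219 CPM in late SPC, 2321 in early ST and 2853 in late ST of A0, and at 231, 2243 and 2594 CPM in the same classes of A10. H1fnt was at 91.1, 910 and 2239 CPM in A0 and at 96.0, 801 and 1983 CPM in A10. With 1000 variable genes the late SPC levels were lower in A0 and A10, at 138.6 and 139.1 CPM for Hils1 and 57.3 and 54.8 CPM for H1fnt. Between class levels of A0, Hils1 had a log2 step of 3.40 from late SPC to early ST and 0.30 from early to late ST, and H1fnt had steps of 3.31 and 1.30. The late ST level of Hils1 pools clusters between 1086 and 3886 CPM. Every early ST cell of A0 held a Hils1 UMI and 98.8% held an H1fnt UMI. Prm1, which encodes the protamine that packs sperm DNA, was at 1928 CPM in late SPC of A0 and at 44711 CPM in late ST. Hils1 gave 11.4 UMIs per 100 Prm1 UMIs in those late SPC and 11.4 in the whole library, and the part of free RNA in the late SPC levels was not tested, since A0 and A10 hold under 50 cells of each somatic class.

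Within the spermatid clusters of A0, the balance of the pair differed. H1fnt made up 9.1% of the UMIs of both genes in cluster 4, an unnamed cluster whose early ST and late SPC marker scores were close, and 20.6% in cluster 3, the largest early ST cluster. It made up 34.1% in cluster 12, an early ST cluster whose next marker score was late ST, and 35.0% and 41.9% in clusters 10 and 9 of late ST. The other early ST clusters, 13 and 14, were at 31.1% and 29.1%. Unnamed cluster 5, with close early and late ST scores, was at 42.3%. The share was not lower in all late SPC clusters, with 32.1%, 38.5%, 35.8% and 15.2% in clusters 0, 1, 2 and 6. In cluster 11, the late ST cluster led by Prm1 and Prm2, H1fnt was at 66.9% (66.4 to 67.4), and A10 had 61.0% (60.5 to 61.6) there. Hils1 was at 3886 CPM in cluster 10 and at 1086 CPM in cluster 11 of A0, against 2093 and 2195 CPM of H1fnt. The pair thus parted in cluster 11, where Hils1 was lower and H1fnt stood near its level in cluster 10. In the order of class levels, neighbours did not overlap from late ST of A0 down to late SPC of A0 for Hils1, and for H1fnt the late SPC of A10 and A0 overlapped.

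**Figure D2:**
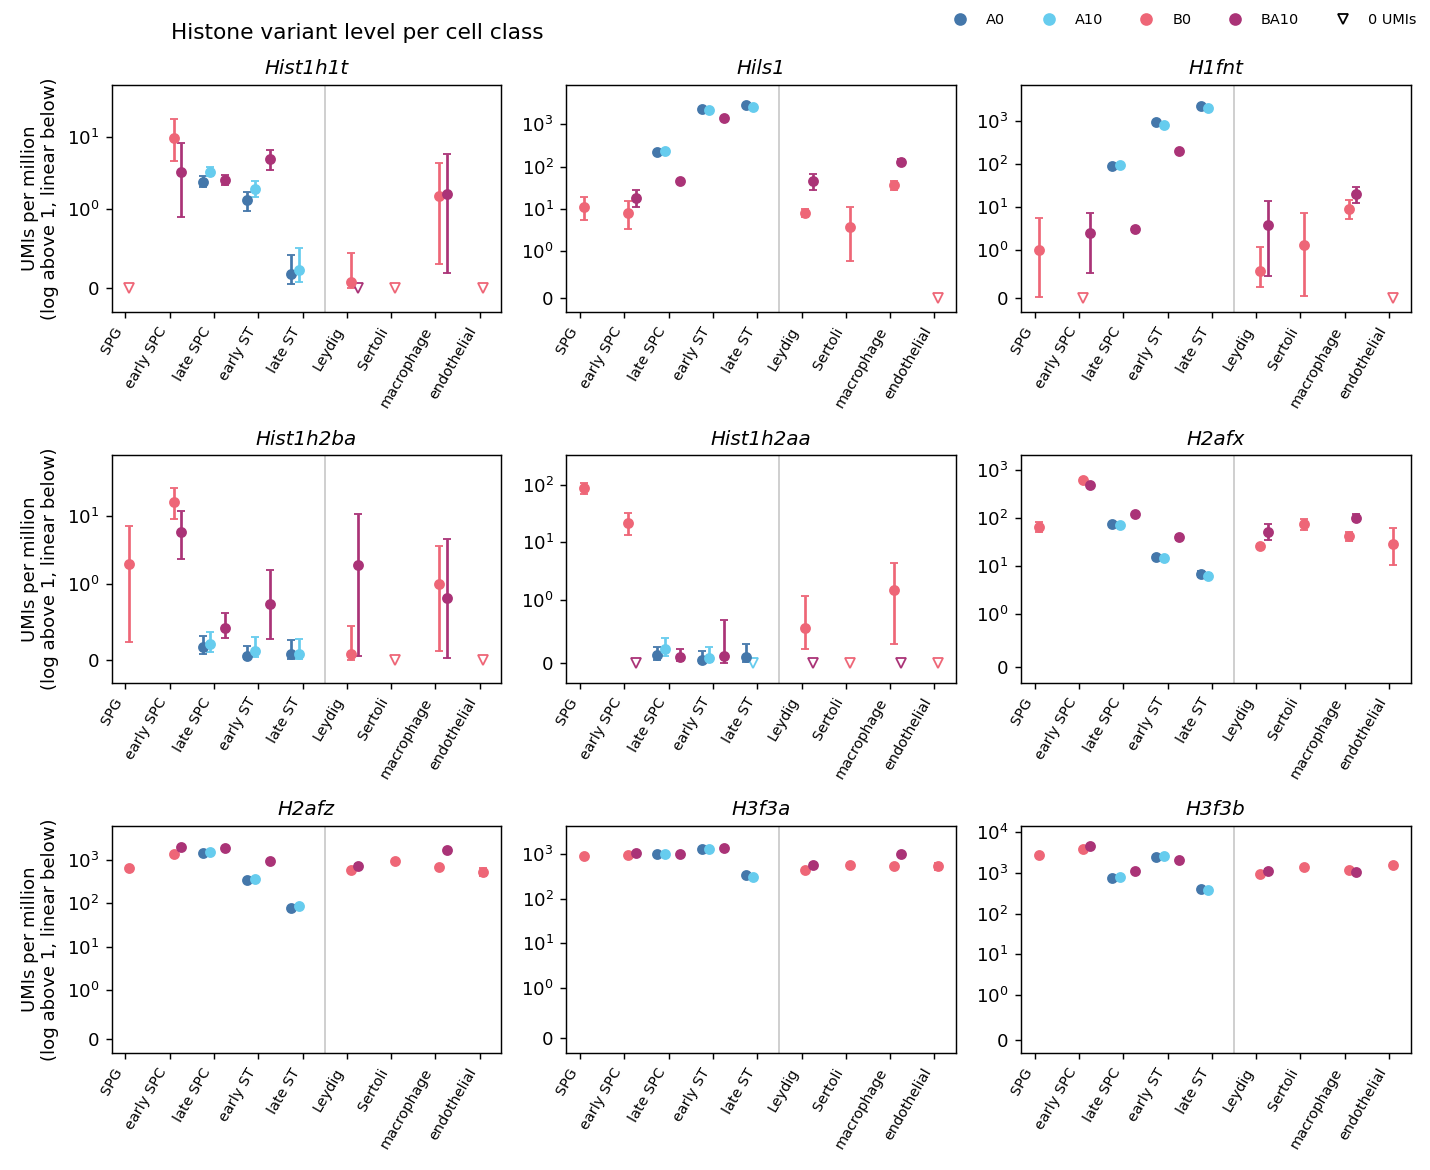
Level of each histone variant (CPM, log scale above 1 and linear below) in each cell class of at least 50 cells, coloured by library. Bars are exact 95% Poisson intervals, open triangles mark 0 UMIs and the grey line parts germ cells from somatic cells. Hils1 and H1fnt are highest in spermatids, Hist1h2aa in SPG of B0 and H2afx in early SPC.

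Promoters of the pair are shown because the genes follow each other across clusters, with a Pearson r of 0.947 over 27 clusters (log2 of CPM plus 1), a description over points that share 4 libraries. The windows hold 250 bases before the RefSeq start on GRCm38.p6, in the sense of the gene, at chr11:94967343-94967592 (Hils1, + strand) and chr15:98257308-98257557 (H1fnt, − strand). The Hils1 window lies in introns of 4 Sgca transcripts of the other strand, and the H1fnt window overlaps no annotated transcript. Capitals mark a CCAAT box on the reverse strand in Hils1 and TGACG, the core of a cAMP response element (CRE), in H1fnt.
Hils1: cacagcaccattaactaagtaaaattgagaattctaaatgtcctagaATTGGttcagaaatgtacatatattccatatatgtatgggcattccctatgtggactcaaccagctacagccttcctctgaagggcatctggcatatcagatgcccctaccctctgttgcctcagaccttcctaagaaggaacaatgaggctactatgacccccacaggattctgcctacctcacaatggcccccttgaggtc
H1fnt: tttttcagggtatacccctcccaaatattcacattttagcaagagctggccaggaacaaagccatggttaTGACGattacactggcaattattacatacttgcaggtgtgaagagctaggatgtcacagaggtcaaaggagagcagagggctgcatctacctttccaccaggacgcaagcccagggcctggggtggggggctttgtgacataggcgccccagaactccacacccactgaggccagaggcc
On either strand, CCAAT occurs in 33.8% of all 32851 RefSeq promoters of that length and the CRE core in 17.8%, so both matches are common. Neither window holds a TATA box, searched as TATAAA (12.4% of promoters), a GC box, searched as GGGCGG (32.7%), or a full CRE of 8 bases (1.55%), which is also counted among the cores. The Hils1 window has 0 CpG and 45.6% GC, against a median of 52.4% GC over all promoters.

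In the busulfan libraries most Hils1 UMIs came from a minority of the cells, although 9.47% of B0 cells and 51.7% of BA10 cells held at least 1. Of the B0 Hils1 UMIs, 84.0% came from cluster 15, which held 11.2% of B0 cells. This unnamed cluster was led by haemoglobin genes, and its late SPC and erythroid marker scores were close (0.523 and 0.487). Cluster 15 was at 413 CPM of Hils1 and 46.2 of H1fnt in B0, and at 259 and 19.4 CPM in BA10. In BA10, 62.4% of the Hils1 UMIs lay in early ST (10.6% of cells), where Hils1 was at 1421 CPM and H1fnt at 196. H1fnt had 20.2% of its BA10 UMIs in the 16 late ST cells alone. Late SPC of BA10 were at 46.2 CPM of Hils1 and 3.00 CPM of H1fnt, levels that depended on the clusters drawn. With 1000 variable genes they were 229 and 26.1 CPM, and at resolution 0.5 they were 318 and 35.0 CPM. The macrophages of the same library, which should lack both genes, were at 132 and 19.6 CPM. Late SPC markers summed to 6231 CPM and late ST markers to 1282 CPM in those 61 macrophages, beside 2116 CPM of macrophage markers, so they are not free of germ cell RNA. Hils1 was seen in 45.1% of those late SPC and 50.8% of the macrophages (median of 22057 and 14808 UMIs). Hils1 gave 126 UMIs per 100 Prm1 UMIs in late SPC of BA10 and 56.3 in the whole library, and the part of free RNA in the late SPC levels was not tested.

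Hist1h1t, the linker histone of pachytene spermatocytes, was captured rarely. Its library level was 2.201 CPM (1.97 to 2.45) in the control, 2.78 (2.51 to 3.06) with AOS alone, 1.54 (1.09 to 2.11) with busulfan alone and 2.74 (2.41 to 3.10) with both. The B0 interval lies apart from those of A10 and BA10 and overlaps that of A0. At the common limit B0 was at 3.06 CPM (21 UMIs), above 2.26 in A0 and 2.74 in BA10. By cluster, Hist1h1t was highest in cluster 7, an unnamed cluster led by Tex101 with early and late SPC markers at similar scores, at 13.8 CPM in A0 and 15.2 in A10. Among named classes it was highest in early SPC of B0, at 9.78 CPM (4.69 to 18.0), where 5.14% of cells held a UMI against 0.0343% of Leydig cells at a similar median depth (4586 and 4045 UMIs). In SPG of B0 it was at 0 UMIs, with an upper limit of 3.67 CPM, and in late ST of A0 it was at 0.178 CPM. From the top of the order down to early ST of A0 (1.31 CPM), neighbouring class levels of Hist1h1t overlapped in their intervals, and the level then stepped down to late ST.

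Counted over the linker histones as a family, a grouping chosen after the values were seen, the leading transcript differed from class to class. UMIs of 3′ libraries count molecules, so these shares are not scaled by gene length. H1fx, a replication-independent H1, was 59.4% of linker histone UMIs in SPG and 68.4% in early SPC of B0. In A0, Hils1 was 54.1% in late SPC, 70.7% in early ST and 55.5% in late ST, with H1fnt at 22.5%, 27.7% and 43.5%. In BA10, H1fx was 71.2% and Hils1 21.3% in late SPC, and in early ST Hils1 was 83.5% and H1fnt 11.5%. Prm1 was at 1928 CPM in late SPC of A0 and 36.8 CPM in those of BA10. The part of free RNA in these late SPC shares was not tested. The lead in late SPC of BA10 turned under some other clusterings. Hils1 was 59.1% and H1fx 31.4% with 1000 variable genes, and 68.7% and 21.4% at resolution 0.5. Leydig cells of B0 held mainly H1f0, the H1 of non-dividing cells, at 73.4%. Hist1h1t stayed at or under 2.36% of the captured linker UMIs in every class shown in the plot of linker makeup.

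**Figure D3:**
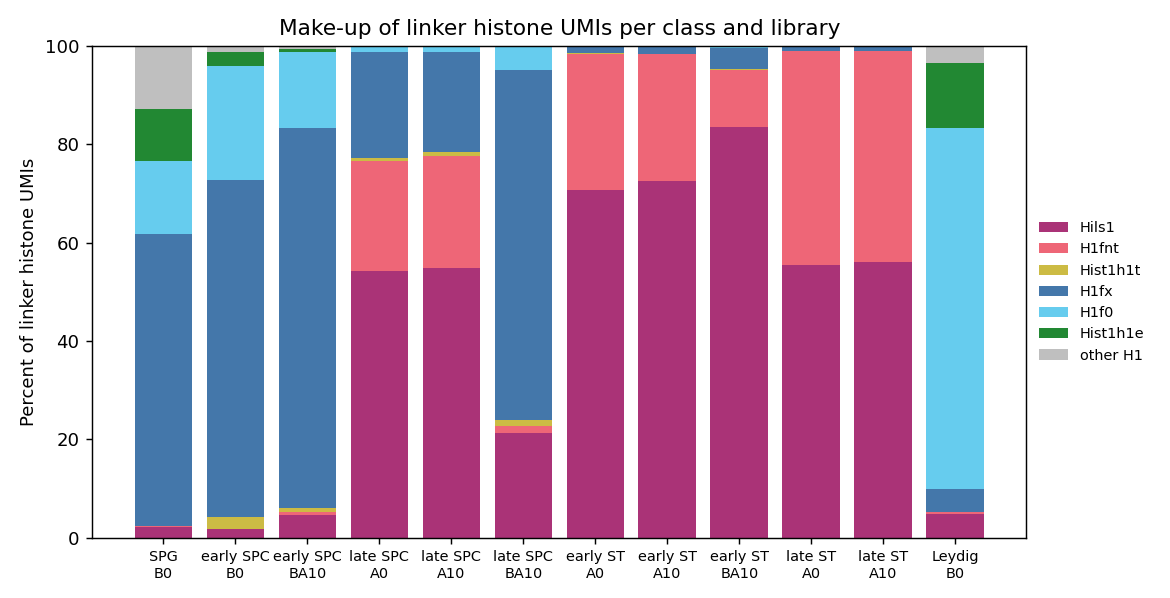
Share of linker histone UMIs (percent, stacked bars from 0 to 100) taken by each gene in germ cell classes and Leydig cells of the libraries named under each bar. H1fx leads in SPG, in early SPC and in late SPC of BA10. In late SPC of BA10 Hils1 led with 1000 variable genes (59.1%) and at resolution 0.5 (68.7%). Hils1 leads in late SPC of A0 and A10 and in spermatids, and the H1fnt share is largest in late ST (43.5% in A0). The part of free RNA in the late SPC shares was not tested.

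Hist1h2aa and Hist1h2ba encode the testis H2A and H2B (TH2A and TH2B) and are transcribed away from each other. Hist1h2aa had 0.610 CPM in A0 (0.492 to 0.748) and 0.550 in A10 (0.435 to 0.685), against 5.02 in B0 (4.18 to 5.97) and 0.241 in BA10 (0.151 to 0.365). Hist1h2ba had 0.239 CPM in A0 (0.167 to 0.330) and 0.209 in A10 (0.141 to 0.298), against 0.987 in B0 (0.639 to 1.46) and 0.570 in BA10 (0.425 to 0.747). Over all cells both were highest in B0, where the 127 Hist1h2aa UMIs lay apart from the other libraries beyond counting error. The Hist1h2ba intervals of B0 and BA10 overlapped. At the common limit B0 kept 2 Hist1h2ba UMIs, at 0.292 CPM, below the 0.570 CPM of BA10.

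The B0 level of Hist1h2aa rested on spermatogonia. SPG of B0 were at 87.5 CPM (70.1 to 108) and held 69.3% of the library's Hist1h2aa UMIs in 5.09% of its cells. A UMI was seen in 13.1% of SPG (9.06 to 18.0) and in 0.103% of Leydig cells (0.0212 to 0.300) of the same library, at a median of 4093 and 4045 UMIs. Early SPC of B0 were at 21.5 CPM (13.5 to 32.6), next in order, and all other named classes were at or under 1.49 CPM with overlapping neighbours. None of the SPG of B0 reached the common limit, and the B0 library then kept 5 Hist1h2aa UMIs. BA10 held 12 SPG against 237 in B0, and the part of these numbers in the lower library level of BA10 was not tested. In A0 and A10, which held at most 1 SPG each, Hist1h2aa was highest in cluster 8, an unnamed cluster led by Stra8 and Rhox13, at 28.1 CPM in A0 and 23.4 in A10, and this cluster was at 3.94 CPM in BA10. Cluster 8 also had 18129, 15120 and 512 CPM of Prm1 in these libraries, a spermatid transcript whose part in the levels was not tested.

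Hist1h2ba was highest in a later class than its neighbour. Early SPC of B0 were at 15.7 CPM (8.95 to 25.4) and those of BA10 at 5.74 (2.31 to 11.8), while SPG of B0 were at 1.99 (0.241 to 7.18). In B0, 64.0% of the 25 Hist1h2ba UMIs were in early SPC. The 92 early SPC of BA10 gave 0 Hist1h2aa UMIs, with an upper limit of 3.03 CPM, below the interval of early SPC of B0. The early SPC of the libraries differed in make-up, with early SPC markers at 9357 CPM in B0 and 4953 in BA10 and late SPC markers at 4543 and 5811 CPM, and the part of this in the levels of both genes was not tested. The Hist1h2aa difference has no replicate behind it, and with histone genes kept in the clustering the early SPC of B0 were at 14.3 CPM of Hist1h2aa and 9.71 CPM of Hist1h2ba.

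The promoter that the pair shares is shown because the genes lie side by side and each had its highest named class in SPG or early SPC of B0, with r = 0.707 over the 27 clusters. Their RefSeq starts are 281 bases apart on opposite strands, so that 220 bases are common to both 250-base windows. The window of Hist1h2aa (chr13:23934187-23934436, + strand, GRCm38.p6) is printed with the TATA boxes, CCAAT boxes and CRE core of either strand in capitals.
Hist1h2aa: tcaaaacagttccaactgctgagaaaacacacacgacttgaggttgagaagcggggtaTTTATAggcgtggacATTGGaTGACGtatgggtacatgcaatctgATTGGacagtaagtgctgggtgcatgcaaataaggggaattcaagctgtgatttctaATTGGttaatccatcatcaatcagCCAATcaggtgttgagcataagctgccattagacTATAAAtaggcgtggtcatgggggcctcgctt
It holds 2 TATA boxes, of which the forward match lies 32 bases before the Hist1h2aa start and the reverse match 94 bases before the Hist1h2ba start. It also holds 4 CCAAT boxes and 1 CRE core. The Hist1h1t window holds 1 CCAAT box and 1 GC box, and 8 of the 9 members had a RefSeq window.

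H2afx, which encodes the H2A.X that marks DNA breaks, had 45.1 CPM in A0 and 47.3 in A10, against 70.8 in B0 and 113 in BA10. H2afz, which encodes the H2A.Z found at promoters, had 817 CPM in A0 and 897 in A10, against 817 in B0 and 1735 in BA10. BA10 was the highest library for both. The BA10 over A0 log2 ratio was 1.30 for H2afx and 1.09 for H2afz, while that of B0 over A0 was 0.64 and 0.00. With the median log2 ratio of all genes (0.34) set to 0, neither gene was past 2-fold in BA10.

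H2afx was highest in early SPC, the class at the start of meiosis. It was at 65.6 CPM in SPG of B0, 634 in early SPC of B0 and 492 in early SPC of BA10, a log2 step of 3.25 from SPG to early SPC within B0. Late SPC were at 73.7 CPM in A0, 71.2 in A10 and 119 in BA10, early ST at 15.2, 14.7 and 39.3, and late ST at 6.81 and 6.14 in A0 and A10. Cluster 7 was at 179 CPM in A0 and 202 in A10, above the late SPC classes of those libraries. Early SPC held 36.1% of the H2afx UMIs of B0 in 3.76% of its cells, and the early SPC level of BA10 depended on the clusters drawn, with 311 CPM at a finer resolution. Neighbouring class levels of H2afx overlapped from late SPC of A0 down to Leydig cells of B0, and those of early and late ST of A0 and A10 lay below. H2afx was also captured in somatic classes of B0, at 73.6 CPM in Sertoli and 25.9 in Leydig cells, beside 70.8 in the whole library. The part of free RNA in these levels was not tested.

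H2afz was lower in early ST than in late SPC of A0, A10 and BA10. It was at 633 CPM in SPG and 1344 in early SPC of B0, and at 1474 in late SPC, 337 in early ST and 80.0 in late ST of A0. The log2 step from late SPC to early ST of A0 was −2.13 for H2afz and −2.20 for H2afx, and that from early to late ST was −2.06 and −1.05. BA10 had 1929 CPM in early SPC, 1873 in late SPC and 952 in early ST, each above the same class in the other libraries, but the macrophages of BA10 were also at 1680 CPM against 700 in B0. Late SPC markers summed to 6231 CPM in the macrophages of BA10 and 766 CPM in those of B0, Leydig markers to 1419 and 18146 CPM and macrophage markers to 2116 and 5554 CPM, and their part in these H2afz levels was not tested. Among H2afz, H2afv, H2afx, H2afy, H2afy2 and H2afj, a grouping chosen after the values were seen that leaves out the testis forms, H2afz gave 83.3% of UMIs in late SPC of A0 and 32.1% in SPG of B0, where H2afv, which encodes a second H2A.Z, gave 48.5%. H2afx gave 19.6% of these UMIs in early SPC of B0, its highest share of any named class.

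H3f3a and H3f3b encode the same H3.3 protein. H3f3a had 972 CPM in A0 and 947 in A10, against 682 in B0 and 1022 in BA10. H3f3b had 1339 CPM in A0 and 1353 in A10, against 1277 in B0 and 1246 in BA10. H3f3b was the most even of the members and differed between libraries by a log2 ratio of at most 0.10 in size in the 4 comparisons made. The even sums hid a wide range between classes, which differed for the genes.

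H3f3b had the wider range from class to class. It was at 2773 CPM in SPG of B0, 3974 in early SPC of B0 and 4699 in early SPC of BA10. It was at 754 CPM in late SPC, 2490 in early ST and 393 in late ST of A0, with 787, 2657 and 383 in A10. At resolution 2 the late ST levels were 232 and 244 CPM in A0 and A10. H3f3a was between 876 and 1358 CPM in every germ cell class from SPG to early ST, and stood at 339 in late ST of A0 and 300 in late ST of A10. The step from late SPC to early ST of A0 was 1.72 for H3f3b and 0.36 for H3f3a on the log2 scale.

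As a share of H3.3 UMIs, H3f3b gave 76.0% in SPG (74.6 to 77.4) and 80.8% in early SPC of B0 (79.7 to 81.9). In late SPC it gave 42.9% in A0, 43.9% in A10 and 52.7% in BA10, the lowest shares among the named germ cell classes. In early ST it gave 65.9%, 68.2% and 61.1% in these libraries, and in late ST 53.6% in A0 and 56.1% in A10. In summed UMIs H3f3b thus led in every named class but the late SPC of A0 and A10, where H3f3a led. The lead in late SPC of BA10 turned on the averaging, with a mean over cells of 48.0%. Its cluster 25 (1446 cells) had 21192 H3f3b and 34785 H3f3a UMIs, and its cluster 23 (968 cells) had 50160 and 29493. Macrophages of BA10 were at 51.6% (49.6 to 53.6). Somatic cells of B0 ranged from 67.9% in Leydig cells to 75.1% in endothelial cells.

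**Figure D4:**
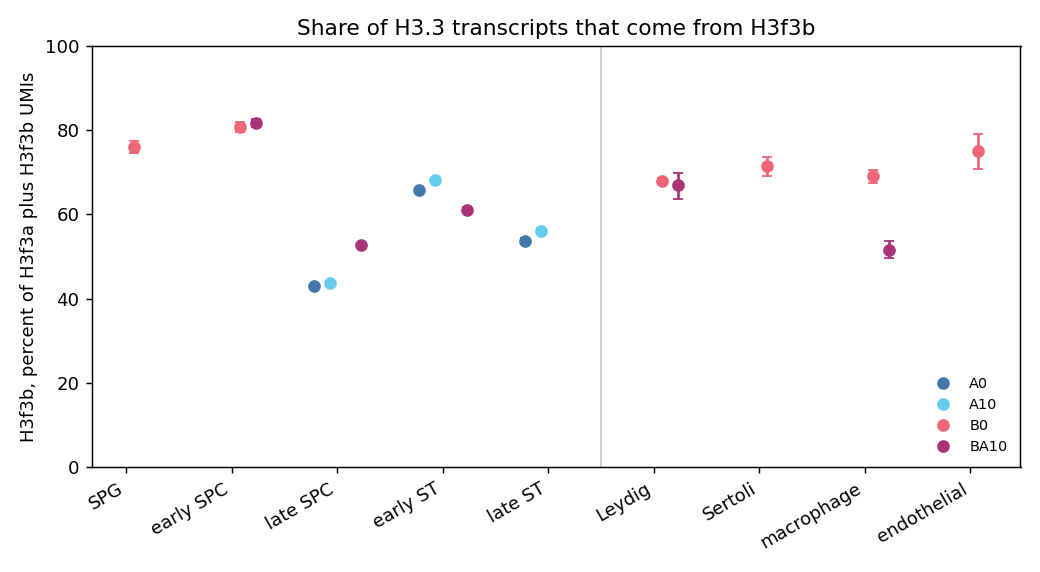
Share of the H3f3a plus H3f3b UMIs that came from H3f3b (percent, axis from 0 to 100) per class and library, with exact 95% binomial intervals of counting error. The grey line parts germ cells from somatic cells. Late SPC of A0 and A10 lie at 42.9% and 43.9%, below early SPC at 80.8% and 81.7% and early ST at 61.1% to 68.2%.

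The H3f3a and H3f3b promoter windows differ in their letters. Both RefSeq starts lie inside the GENCODE gene, so each window overlaps exons and UTRs annotated to its own gene, and that of H3f3a also overlaps H3f3aos. Of the 250 bases before its RefSeq start, H3f3a had 77.2% GC with 4 GC boxes, 1 CCAAT box and 0 TATA boxes, and H3f3b had 54.0% GC with 4 CCAAT boxes, 2 CRE cores, 1 TATA box and 0 GC boxes. These matches are descriptions of the windows and were not linked to the levels by any test.

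AOS given to mice without busulfan was compared with control in A10 and A0. Of the 9 members 0 were past 2-fold in either direction, against 0.0446% of 6724 genes higher and 0.0595% lower, counting genes at 10 CPM or more in either library. The largest differences were −0.24 for H1fnt and 0.24 for Hist1h1t on the log2 scale. The median over the 6 members at that level was −0.01, beside −0.03 over all genes.

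Busulfan alone was compared with control in B0 and A0. Hist1h2aa was past 2-fold higher (1.90, under 10 CPM in both libraries), and Hils1 and H1fnt were past 2-fold lower, so 1 of 9 was higher and 2 were lower, against 42.8% of 10056 genes higher and 22.7% lower. At the common limit Hils1 was at −1.88 and H1fnt at −4.02, and 0 members were higher and 2 lower, against 16.1% and 11.7% of genes. H2afx was at 0.97 and H2afz at 0.52 there. Over the 6 members at 10 CPM or more the median was −0.29, beside 0.51 over all genes.

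AOS after busulfan was compared with busulfan alone in BA10 and B0. H2afz (1.09) and H1fnt (1.07) were past 2-fold higher and Hist1h2aa (−2.28, under 10 CPM in both libraries) lower, against 18.8% of 9720 genes higher and 39.5% lower. At the common limit, where B0 was mostly cluster 15, 0 members were past 2-fold in either direction, against 1.14% and 14.1% of genes, and H1fnt changed sign, with −0.57, as Hils1 did, from 0.73 to −0.91. H2afz was at 0.55 and H2afx at 0.34 there. With the median of all genes set to 0, 4 members were higher and 1 lower. The shares of all genes above belong to the unshifted ratios, and those after the shift are not given here. The 2 comparisons with B0 share that library, and its cells were the shallowest.

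BA10 was also compared with A0, which are closer in depth. H2afx and H2afz were past 2-fold higher and Hils1 and H1fnt lower, 2 of 9 in each direction, against 15.2% of 7549 genes higher and 20.2% lower. With the median of all genes set to 0 the split was 0 higher and 2 lower, and the shares of all genes after that shift are not given here. The median over the 6 members at 10 CPM or more was −0.02, beside 0.34 over all genes.

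Within classes, BA10 and A0 drew mostly on different clusters. Late SPC were mostly clusters 0, 1, 2 and 6 in A0. In BA10 they were mostly clusters 23 and 25, with 4 cells in cluster 1 and 1 in cluster 2. H1fnt was at 1.67 and 2.77 CPM in clusters 23 and 25, against 3.00 CPM in all late SPC of BA10. Early ST were mostly clusters 3, 12, 13 and 14 in A0. In BA10 they were mostly cluster 21 (388 of 402 cells), with 6 cells in cluster 12 and 8 in cluster 14. In late SPC 0 members were past 2-fold higher and 2 lower, against 3.17% and 12.1% of 6916 genes, with H1fnt at −4.53 and Hils1 at −2.22. Other clusterings moved H1fnt to −1.11 with 1000 variable genes and to −0.88 at resolution 0.5, where it was no longer past 2-fold. Prm1 was at 1928 CPM in late SPC of A0 and 36.8 CPM in those of BA10, and the median depth was 11770 and 22057 UMIs. The part of these in the result was not tested. Hils1 changed direction under the same settings, to 0.98 at resolution 0.5 and 0.72 with 1000 variable genes. These settings left 14 and 12 BA10 cells in early ST.

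In early ST, H2afz (1.50), Hist1h1t (1.36) and H2afx (1.31) were past 2-fold higher and H1fnt (−2.21) lower, so 3 members were higher and 1 lower, against 11.9% and 11.3% of 6772 genes. Hist1h1t was at 4.93 and 1.31 CPM, under the 10 CPM that these genes had to reach, so 2 of the 6 members at that level were higher and 1 lower. Hils1 was at −0.71, H3f3b at −0.22 and H3f3a at 0.08. H1fnt was seen in 45.8% of BA10 early ST and 98.8% of those of A0, and in 35.1% and 91.9% after each cell was thinned to 5000 UMIs. Prm1 was at 6192 CPM in early ST of A0 and 221 CPM in those of BA10. Cluster 21 of BA10 alone was at 99.5 CPM of Prm1 and 173 CPM of H1fnt, against 221 and 196 CPM in the class. Early ST markers summed to 5202 CPM in early ST of BA10 and 7731 CPM in those of A0. Late SPC markers summed to 5038 and 3631 CPM there, and late ST markers to 5822 and 31755 CPM. Unnamed cluster 4 of A0 lay outside early ST. It was at 107 CPM of H1fnt, 1068 of Hils1, 854 of H2afz and 32.3 of H2afx. Cluster 21 of BA10 was at 173, 1376, 972 and 40.0 CPM. The part of the Prm1, marker and cluster differences in the early ST ratios was not tested. In this class H1fnt kept between −2.24 and −2.17, H2afz between 1.41 and 1.63 and H2afx between 1.18 and 1.51 over the 4 alternative settings that left a BA10 class of 50 cells.

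**Figure D5:**
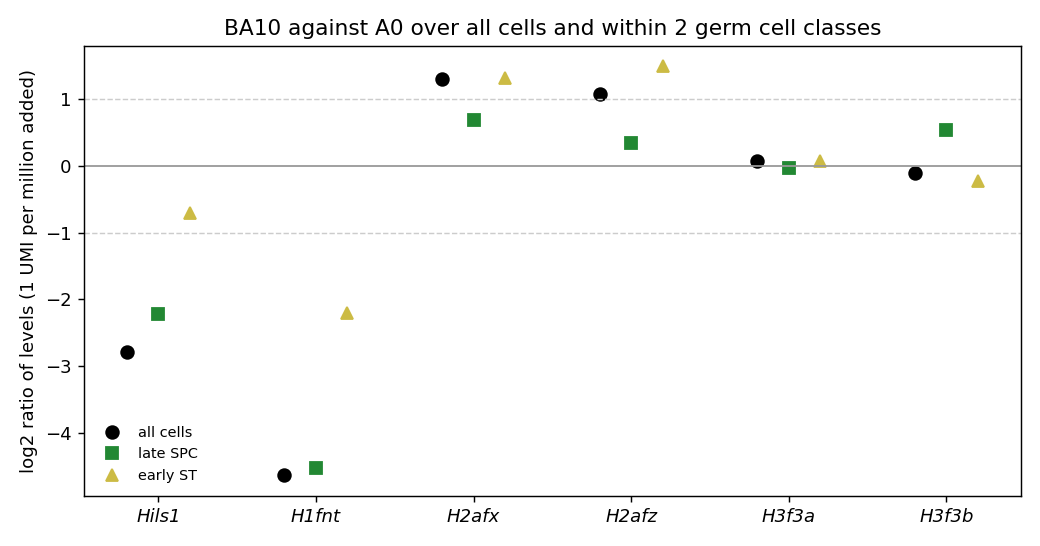
Log2 ratio of BA10 over A0 (1 CPM added to each level) for the 6 members above 10 CPM, over all cells (circles), in late SPC (squares) and in early ST (triangles). Dashed lines mark 2-fold and no counting intervals are drawn. H1fnt and Hils1 lie below 0 in each, H3f3a stays between −0.03 and 0.08, and H2afz and H2afx are past 2-fold over all cells and in early ST.

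The steps between stages were wide in A0 itself. From late SPC to early ST, Hils1, H1fnt and H3f3b were past 2-fold higher and H2afx and H2afz lower, 3 and 2 of 9 members, against 26.4% and 35.3% of 7429 genes. From early to late ST only H1fnt was past 2-fold higher, and H2afx, H2afz, H3f3a (−1.92) and H3f3b (−2.66) were lower, 1 and 4 of 9, against 10.8% and 48.1% of 6284 genes. The median over all genes was −0.55 in the former step and −0.93 in the latter. The counts of these steps were not recalculated with that median set to 0. A10 had the same number higher and lower in the former step, against 26.0% and 35.3% of 7382 genes. In the latter step A10 had 1 higher and 5 lower, against 10.2% and 50.6% of 6229 genes, and the lower members included Hist1h1t at 0.232 CPM against 1.92 CPM, both under 10 CPM.

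Genes that work on these histones were followed as lists chosen with earlier results of these data known. Of 18 genes of histone removal in spermatids, 2 were past 2-fold higher and 10 lower in B0 against A0 (median −1.57), led by the protamine Prm2 (15503 CPM in A0, 21.7 in B0, −9.41) and the transition protein Tnp2 (−8.53). In BA10 against A0, 0 were higher and 9 of 17 lower (median −1.86), and in BA10 against B0 6 of 18 were higher and 3 lower (median 0.27). Of 9 other histone variants, 5 were higher and 1 lower in B0, with H2afj at 4.49, H1f0 at 3.93 and H2afb1, a short H2A of spermatids, at −6.87. In BA10 3 of 7 were higher and 1 lower against A0, and 2 of 9 higher and 5 lower against B0. Of 7 replication-coupled histones at 10 CPM or more, 4 were higher and 3 lower (median 2.50), led by Hist1h2ao at 5.15, which was at 960 CPM in SPG of B0. In BA10 0 of 4 were higher and 2 lower against A0 (median −1.41), and 0 of 5 higher and 4 lower against B0 (median −3.20).

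Of 29 histone chaperones and exchange factors, 8 were higher and 3 lower in B0 against A0, with Atrx, a partner of the H3.3 chaperone Daxx, at 5.44, Anp32e, which removes H2A.Z, at 4.36 and Chaf1a, of the replication chaperone CAF-1, at −1.35. In BA10 against A0, 3 of 27 were higher and 0 lower, with Anp32b at 1.28 and Kat5, the acetylase of the Tip60 complex, at 1.27. Against B0, 9 of 31 were higher and 6 lower. Of 8 H2A.X kinases and readers, 3 were higher and 0 lower in B0, with Atm, the break kinase, at 2.74. In BA10 0 of 5 were higher and 2 lower against A0, and 0 of 8 higher and 3 lower against B0. In A10 against A0, 0 genes of any of these lists were past 2-fold. Beside these counts stand the shares of all genes given above for the same comparisons and the larger share of somatic cells in B0.

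Likeness across the 27 clusters was measured over 12780 genes, leaving out histone genes, as a Pearson r of log2 CPM over points that share libraries. The genes most like Hils1 were Tmco2, Ropn1 and Aqp7 (each 0.997), and those most like H1fnt were Actrt2 (0.995), Otub2 and 1700001C19Rik (each 0.994). Hist1h2aa was closest to Spint1 (0.960), Zglp1 (0.956) and Fsd1 (0.953), and Hist1h2ba to Spata22 (0.908), Vax2 (0.892) and Mcmdc2 (0.890). H2afx was closest to Rab11fip2 (0.968), Gtf2h4 (0.965) and Eif5a (0.954), and H2afz to Emc4 (0.984), Utp23 and Fbxw9 (each 0.980). The nearest to H3f3a were Mrpl32 and Bud31 (each 0.957) and Sf3b4 (0.953), to H3f3b Mta3 (0.925), Skiv2l2 (0.895) and Wdr75 (0.882), and to Hist1h1t Aym1 (0.906), Ift27 (0.889) and Abhd14a (0.882). Among the members H2afx and H2afz ran together (0.9004), and H3f3a and H3f3b less so (0.659).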

How the data were processed

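The authors counted UMIs with Cell Ranger 2.2.0 on mm10, removed cells with under 200 genes and genes in under 3 cells, and deposited the natural log of a scaled share: 1 was added to 10000 times the part of a cell's UMIs that a gene took. UMIs were recovered from the deposited natural log values: after division by the lowest value of the cell, 100% of values above 0 were whole within 0.001. How the study called cells was not settled here. Sums of UMIs over the cells of a library or class were expressed per 1000000 (CPM). Intervals were exact Poisson or Clopper-Pearson at 95%. A gene was called past 2-fold at a log2 ratio beyond 1 with 1 CPM added, and background shares counted genes at 10 CPM or more in either library. With 1 library per group no test was run. The scripts were tested on simulated data.

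Cells were clustered with scanpy 1.11.5 and leidenalg 0.10.2 (2000 variable genes without histone genes, 30 components, 15 neighbours, resolution 1), giving 27 clusters, 7 of them unnamed. A cluster was named where its best marker score was 0.4 or more and led by 0.1, with 3 markers seen in 10% of cells and no more markers of another class among its 10 leading genes. These limits were set after the data were seen, and rebuilt names may differ from those of the study. Scrublet marked 721, 838, 4 and 48 cells as doublets, and all were kept in the values given. It marked 0.0859% of B0 cells, so its count there is of little use.

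The members and lists were chosen with earlier results of these data known. All 9 members were counted in every comparison, each list was described by its counts and some of its largest differences, and likeness by the 3 highest correlations. Alternatives covered the lower UMI limit, pseudocount, level filter, scaling, mean over cells, clustering, thinning and doublets, and leaving out shared barcodes and the linker make-up under other clusterings were chosen after seeing the data. H2afx has no RefSeq promoter window here, and protein sequences were not used here.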

Additional observations from a re-analysis of the deposited data

Results flagged for a closer look

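For 4 members the AOS log2 ratio had opposite signs with and without busulfan, and the difference was not tested since each group was 1 library. The ratio of BA10 over B0 minus that of A10 over A0 was 0.89 for Hils1 (0.73 and −0.16), 1.31 for H1fnt (1.07 and −0.24), 0.62 for H3f3a (0.58 and −0.04) and −0.051 for H3f3b (−0.04 and 0.02). The median over all genes was −0.38 in BA10 over B0 and −0.03 in A10 over A0. H3f3b lay above it in both, so its signs were the same with that median set to 0. Hils1, H1fnt and H3f3a were below 0 in BA10 over B0 at the common limit, at −0.91, −0.57 and −0.03, so their opposite signs were seen over all cells but not there. The limit also changed which cells of B0 were compared, since 333 of the 448 came from cluster 15, which held 84.0% of the B0 Hils1 UMIs.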

How the results depend on the processing

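Counts of members past 2-fold stayed within 1.5 times in 24 of 28 recalculations. Those without the level filter could change only the share of all genes, since members were counted without it. In BA10 over B0 the count went from 3 to 0 at the common limit, 1 with 10 CPM added and 5 with the median of all genes set to 0. In BA10 over A0 it went from 4 to 2 with that median set to 0. The shares of all genes with 10 CPM added or with that median set to 0 are not given here. The median over all 9 members of B0 over A0 went from −0.07 to −0.087 as a mean over cells, 0.082 at the common limit and −0.57 with the median set to 0. For BA10 over B0 it went from 0.58 to 0.92, −0.12 and 0.97 under these settings, and for BA10 over A0 from 0.07 to 0.17, 0.052 and −0.27, with 0.046 at 10 CPM added. The cause was not tested. Among ratios past 2-fold, the sign changed in H1fnt, BA10 over B0 (−0.57 at the common limit), and in Hils1, BA10 over A0 in late SPC (0.72 with 1000 variable genes and 0.98 at resolution 0.5). Smaller ratios changed sign at the common limit too, in BA10 over B0 for Hils1 (−0.91), H3f3a (−0.03), Hist1h1t (−0.12) and Hist1h2ba (0.28), and in B0 over A0 for H3f3a (0.08), H3f3b (0.02) and Hist1h1t (0.32). H1fnt, BA10 over A0 in late SPC, ranged from −4.54 to −0.88 and was no longer past 2-fold at resolution 0.5. Of 326 recalculated levels of germ cell classes, 182 left their counting interval and 13 moved by over 1.5 times, all by clustering choices. These 326 leave out levels under 10 CPM, such as H1fnt in late SPC of BA10, and classes left with under 50 cells. Early SPC of B0 and BA10 went from 175 and 92 cells to 0 and 8 with 1000 variable genes. At resolution 0.5 both were at 0 cells, so the early SPC levels were not recalculated under these settings. The B0 library levels moved at the common limit, from 121 to 382 CPM for Hils1, 13.9 to 45.3 for H1fnt and 5.02 to 0.729 for Hist1h2aa. Hist1h1t went from 1.54 to 3.06 CPM and Hist1h2ba from 0.987 to 0.292 CPM. Thinning to 5000 UMIs moved 46 of 62 shares of cells with a UMI. No paired analysis was possible because each group is 1 library. Hist1h1t, Hist1h2aa and Hist1h2ba rest on between 22 and 399 UMIs per library, which limits what their levels can show.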
